A study of Homo sapiens with 12 samples.

Results

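PROM1, PROM2 and HDAC6 were 3 of the 34595 genes with values on 12 Illumina HT-12 v3 BeadChips, and each was chosen by its symbol in the value table. The arrays carried RNA from 3 established human gastric cancer cell lines, KATO-III, SNU-216 and SNU-601, all grown untreated in RPMI1640 medium with 10% calf serum. Cells of each line were stained with a phycoerythrin-labelled AC133 antibody against CD133/1, and a flow sorter collected the brightest 10% as CD133+ cells and the dimmest 6% as CD133- cells. This gave 6 populations with 2 arrays each. The labels do not say whether the arrays of a population came from separate sorts. The p-values within lines, between populations and for differences between lines thus measure only the spread between these arrays, which may be technical. The fit over the lines adds to it how the fraction effect differed between lines, and counts the arrays of a population separately.

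PROM1 encodes CD133 (prominin-1), a glycoprotein that crosses the membrane several times and sits in microvilli and other protrusions of the cell surface. The AC133 antibody used for the sort binds a form of that protein, so the sort was on protein at the surface while the arrays measured RNA. PROM2 encodes prominin-2, the paralog of CD133 in mammals, which has the same membrane layout, is also found in protrusions, and is expressed in many epithelia. HDAC6 encodes a mainly cytoplasmic deacetylase that acts on tubulin, cortactin and HSP90, and it is known to bind CD133 and to keep it from degradation. The question put to these values was whether the paralog and the deacetylase follow the sorted antigen.

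The promoter windows of the paralogs are shown because their RNAs moved in opposite directions between the fractions. Each runs from 250 bases before to 50 bases after a RefSeq transcription start in GRCh38.p14, 5′ to 3′ on the strand of the gene, with every CG dinucleotide in capitals. The PROM1 window lies at chr4:16083974-16084273 on the minus strand and the PROM2 window at chr2:95274199-95274498 on the plus strand.
PROM1: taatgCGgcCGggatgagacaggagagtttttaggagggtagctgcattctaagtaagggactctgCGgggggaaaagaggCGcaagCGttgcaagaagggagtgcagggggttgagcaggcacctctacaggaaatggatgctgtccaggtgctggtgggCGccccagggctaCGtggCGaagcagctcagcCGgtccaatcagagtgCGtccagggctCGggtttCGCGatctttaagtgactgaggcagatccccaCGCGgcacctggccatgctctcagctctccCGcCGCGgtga
PROM2: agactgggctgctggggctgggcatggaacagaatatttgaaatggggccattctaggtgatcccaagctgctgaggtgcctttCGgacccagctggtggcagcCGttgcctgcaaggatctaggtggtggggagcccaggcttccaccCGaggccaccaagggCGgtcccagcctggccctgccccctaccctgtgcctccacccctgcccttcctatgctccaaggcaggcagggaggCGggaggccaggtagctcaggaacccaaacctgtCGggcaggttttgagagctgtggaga

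The PROM1 window held 18 CG dinucleotides and the PROM2 window 6, against a median of 14 over 35116 windows of the same length, with quartiles of 4 and 28. Fewer CG dinucleotides were found in 55.5% of all windows than in the PROM1 window, and in 33.7% than in the PROM2 window. PROM1 had 4 such windows at different starts, with 6 to 32 CG dinucleotides, PROM2 had 1 and HDAC6 had 3, with 21 to 36. The letters CANNTG (the E-box, read the same on both strands) occurred at 2 places in the PROM1 window printed here and at 1 in the PROM2 window, and 68.7% of all windows held them. ACGTG or GCGTG, the core of the hypoxia response element, was searched on both strands and can overlap CANNTG. It occurred at 2 places in the PROM1 window and at none in the PROM2 window, and 48.4% of all windows held it. TATAAA, searched on both strands, was in neither window and in 11.5% of all windows. CCAAT, searched on both strands, occurred once in the PROM1 window, not in the PROM2 window, and in 34.6% of all windows. These matches describe letters only.

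Values were linear, background-subtracted intensities per gene, so levels of different genes cannot be set against each other. Between 16320 and 16474 genes an array lay above a floor of 32.7, and 20147 genes that passed it on at least 2 arrays were tested. All 3 genes described here were above the floor on all 12 arrays. The epithelial markers EPCAM, KRT8, KRT18, KRT19 and CDH1 were also above it on every array, with summed intensities of 46395 to 57671. Of 7 blood, endothelial and fibroblast markers, PTPRC, CD3E, PECAM1 and COL3A1 were above the floor on no array, COL1A2 on 1, CD14 on 6 and COL1A1 on 7. Over the lines none of the 5 epithelial markers, nor CD14 or COL1A1, passed the limma test or had an unadjusted p under 0.05. Of all genes tested 4.73% passed and 24.5% had such an unadjusted p. Changes of opposite sign in different lines can cancel in this fit, and marker changes within lines are given further down.

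PROM1 was higher in the CD133+ than in the CD133- cells of each line. The KATO-III CD133+ arrays read 9513 and 8847, and the CD133- arrays 4056 and 4493. In SNU-216 the CD133+ arrays read 9273 and 8773, and the CD133- arrays 2232 and 2219. In SNU-601 the values were 4877 and 4677 in CD133+ cells, and 1315 and 1324 in CD133- cells. All 6 CD133+ arrays lay above all 6 CD133- arrays, the lowest CD133+ value being 4677 in SNU-601 and the highest CD133- value 4493 in KATO-III. Only 0.323% of the genes tested had the fractions separated in this way with CD133+ higher, and 3.25% had both CD133+ arrays above both CD133- arrays within each line.

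With cell line as a block, PROM1 was 3.16-fold higher in CD133+ cells, a log2 change of 1.66 ± 0.13 (SE, 95% interval 1.38 to 1.94, adjusted p = 0.00066, limma with Benjamini-Hochberg adjustment), where 2.62% of the genes passed in this direction. Within the lines the difference was 2.15-fold in KATO-III (log2 1.10, interval 0.97 to 1.24, limma adjusted p = 2.38e-06), 4.05-fold in SNU-216 (log2 2.02, interval 1.89 to 2.15, adjusted p = 3.02e-07) and 3.62-fold in SNU-601 (log2 1.86, interval 1.72 to 1.99, adjusted p = 5.65e-06). The share of genes that passed as higher was 18.7% in KATO-III, 14.6% in SNU-216 and 8.59% in SNU-601, and 0.630% of the genes passed as higher in all of them. The effect differed between lines (adjusted p = 9.62e-05 for the interaction, which 44.4% of the genes passed). The KATO-III difference was smaller than that of SNU-216 by 0.92 and than that of SNU-601 by 0.75 on the log2 scale (adjusted p = 7.46e-05 and 0.000246, limma). SNU-601 and SNU-216 differed by -0.16, with an interval of -0.35 to 0.03 that held 0 (adjusted p = 0.192). The sort had used CD133 protein to form the fractions, so these PROM1 values describe the sort at the level of RNA.

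The CD133 fraction did not set the level of PROM1 alone. The mean intensities ran from 9179.9 ± 471 (SD, n = 2) in KATO-III CD133+ cells through 9023 ± 353 in SNU-216 CD133+, 4777 ± 141 in SNU-601 CD133+, 4275 ± 309 in KATO-III CD133- and 2225 ± 8.8 in SNU-216 CD133- to 1319.9 ± 6.44 in SNU-601 CD133- cells. Of the 15 pairs of populations, 14 differed in the limma test. As background, between KATO-III CD133+ cells and SNU-216 CD133+, SNU-216 CD133-, SNU-601 CD133+ and SNU-601 CD133- cells, 57.5%, 60.0%, 55.2% and 56.8% of the genes passed. For KATO-III CD133- cells against the same 4 populations these shares were 51.9%, 52.4%, 46.9% and 47.8%. They were 50.6% and 51.3% for SNU-216 CD133+ cells, and 51.5% and 52.6% for SNU-216 CD133- cells, against the SNU-601 CD133+ and CD133- cells. The pair that did not pass was KATO-III CD133+ and SNU-216 CD133+, with a log2 difference of 0.02 and an interval of -0.11 to 0.16 (adjusted p = 0.775). The SNU-601 CD133+ cells exceeded the KATO-III CD133- cells by only 0.16 on the log2 scale (adjusted p = 0.0497), so the CD133- cells of one line came close to the CD133+ cells of another. Of the variation of log2 PROM1 over the 12 arrays, 67.1% lay between fractions, 28.9% between lines, 3.87% in the combination of both and 0.174% between arrays of a population.

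**Figure D1:**
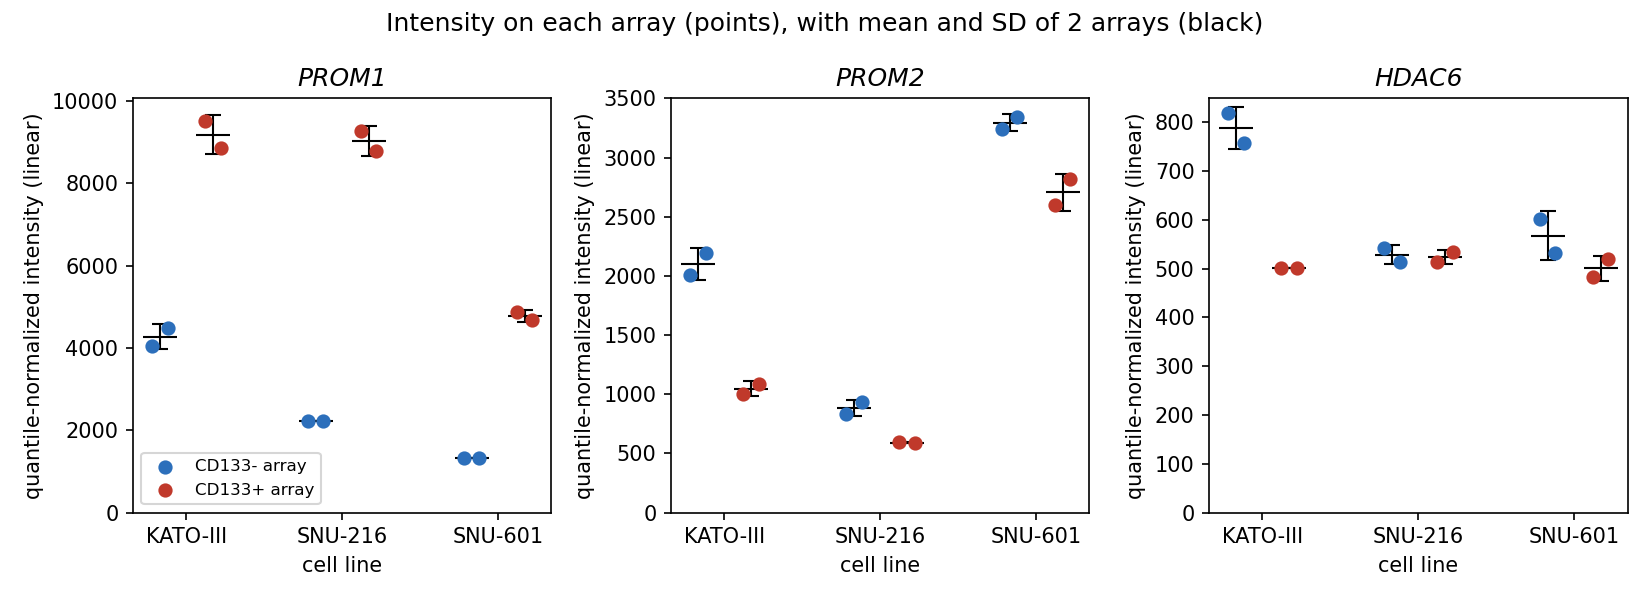
Intensity of PROM1, PROM2 and HDAC6 on each of the 12 arrays (linear, background-subtracted units, each gene on its own vertical axis) by line and fraction, with points for arrays and bars for the mean of the 2 arrays of a population. PROM1 was higher and PROM2 lower on both CD133+ arrays of each line, while HDAC6 stood apart only in the KATO-III CD133- cells, at 757 and 819.

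PROM2 went the other way in each line. The KATO-III CD133+ arrays read 1002 and 1090.1 and the CD133- arrays 2006 and 2195. In SNU-216 the CD133+ arrays read 594 and 589 and the CD133- arrays 836 and 931. In SNU-601 the CD133+ arrays read 2595 and 2816 and the CD133- arrays 3243 and 3343. Both CD133+ arrays lay below both CD133- arrays in every line, which was so for 3.05% of the genes tested. Across lines the fractions overlapped widely, since the SNU-601 CD133+ arrays lay above every CD133- array of KATO-III and SNU-216.

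With cell line as a block, PROM2 fell by 0.62 on the log2 scale in CD133+ cells, 1.54-fold lower (SE 0.11, 95% interval -0.85 to -0.39, limma adjusted p = 0.0142), and 2.11% of the genes passed in this direction. The fall was 2.01-fold in KATO-III (log2 -1.01, interval -1.17 to -0.84, limma adjusted p = 1.32e-05), where 20.6% of the genes passed as lower. It was 1.49-fold in SNU-216 (log2 -0.58, interval -0.74 to -0.41, adjusted p = 0.000503), where 14.0% did. In SNU-601 it was 1.22-fold (log2 -0.28, interval -0.45 to -0.12, adjusted p = 0.0304), where 7.78% did. PROM2 was thus one of the 0.427% of genes that passed as lower in each of the lines. In an exact two-sided permutation test with fraction labels exchanged within lines, PROM2 had p = 0.00926, the smallest that the possible arrangements can give. After adjustment over the 3 genes it was 0.0139, and PROM1, on whose protein the cells were sorted, is one of these genes. The test took the arrays of a population as separate units, and with populations as units no p under 0.05 would be possible.

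The call over the lines rested on counting the 2 arrays of a population as separate replicates. With them averaged first, PROM2 had a limma adjusted p of 0.796, and PROM1 did too, at unchanged log2 values of -0.62 and 1.66, and none of the 20147 genes passed, while 992 had an unadjusted p under 0.05. With the population as a random block the adjusted p of PROM2 was 0.149, in a fit where only 1 of the 20147 genes passed. Without the KATO-III arrays PROM2 stood at -0.43 (adjusted p = 0.0698), without those of SNU-216 at -0.65 (0.0648), and without those of SNU-601 at -0.79 (0.00668). The SNU-601 value was the least secure of the 3 lines. Its adjusted p went to 0.162 without CD133+ replicate 1, 0.0874 without CD133- replicate 1 and 0.136 without CD133- replicate 2 of that line, and to 0.0522 without either CD133+ array of SNU-216.

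The fall of PROM2 differed between lines. SNU-601 fell less than KATO-III by 0.72 on the log2 scale (adjusted p = 0.000959, limma), and SNU-216 less than KATO-III by 0.43 (adjusted p = 0.0124, and 0.0512 without KATO-III CD133+ replicate 1). The values of SNU-601 and SNU-216 differed by 0.29 with an interval of 0.06 to 0.53, which did not pass after adjustment (0.0671), although it did without SNU-216 CD133- replicate 1 (0.04). For these 3 differences between lines, 30.1%, 32.0% and 28.2% of all genes passed in turn. KATO-III, which had the smallest PROM1 difference of the 3 lines, had the largest PROM2 difference. The other lines did not continue this order. SNU-216 had larger differences than SNU-601 for both genes, with log2 2.02 against 1.86 for PROM1 and -0.58 against -0.28 for PROM2. Neither gap passed in the main fit.

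The log2 difference PROM2 minus PROM1 changed from CD133- to CD133+ cells by -2.11 in KATO-III, by -2.60 in SNU-216 and by -2.14 in SNU-601, a mean of -2.28. The sort on CD133 favours high PROM1 and so lowers this difference even where PROM2 is level. The permutation p given for it further down is therefore not used to judge PROM2. The direction of PROM2, opposite to that of PROM1 in each line, rests on the PROM2 values alone.

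**Figure D2:**
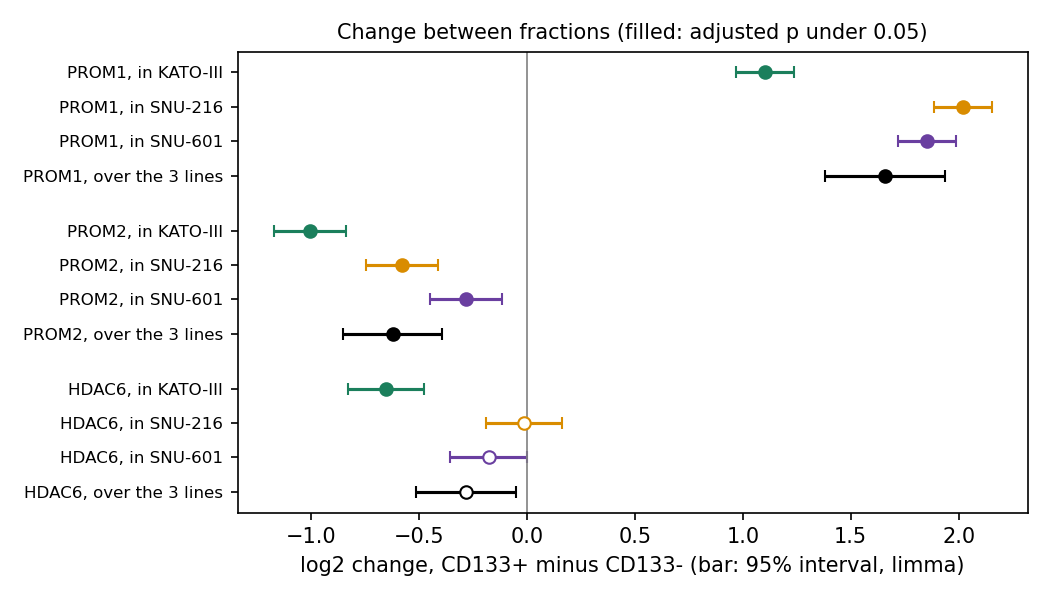
Log2 change from CD133- to CD133+ cells for PROM1, PROM2 and HDAC6 within each line and over the 3 lines, with 95% intervals from limma and a line at 0. The PROM1 intervals lie above 0 and the PROM2 intervals below 0 in every line, while the HDAC6 interval in SNU-216 holds 0 and that in SNU-601 ends at it.

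PROM2 differed far more between the lines than between the fractions. Its mean intensity was 3293 ± 71.2 (SD, n = 2) in SNU-601 CD133- cells, 2706 ± 156 in SNU-601 CD133+, 2101 ± 133.99 in KATO-III CD133-, 1046 ± 62.6 in KATO-III CD133+, 884 ± 66.9 in SNU-216 CD133- and 591 ± 3.4 in SNU-216 CD133+ cells. All 15 pairs of populations differed in the limma test. The closest neighbours were KATO-III CD133+ over SNU-216 CD133-, by 0.24 on the log2 scale (adjusted p = 0.0174), and the SNU-601 fractions. Lines accounted for 85.1% of the variation of log2 PROM2, fractions for 11.8%, their combination for 2.68% and arrays of a population for 0.365%. SNU-601, the line with the least PROM1 in both fractions, had the most PROM2 in both. The other lines did not continue this order, since KATO-III CD133- cells had more of both genes than SNU-216 CD133- cells. In the CD133+ cells of these lines PROM1 did not differ in the limma test, while KATO-III had more PROM2.

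**Figure D3:**
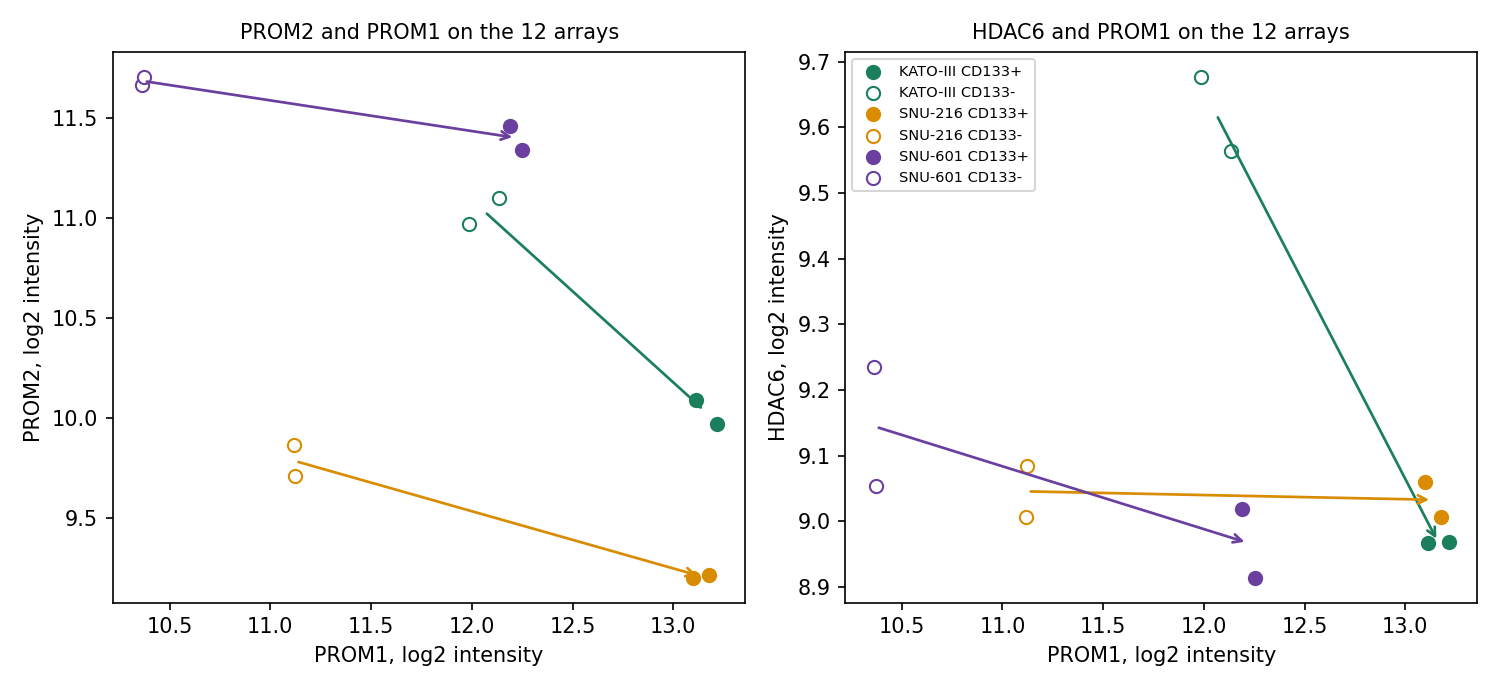
Log2 intensity of PROM2 (left) and HDAC6 (right) against that of PROM1 on the 12 arrays, coloured by line, with open points for CD133- and filled points for CD133+ arrays and an arrow from the mean of one fraction to that of the other. All 3 arrows run down and to the right for PROM2, from 3 separate heights, whereas for HDAC6 only the KATO-III arrow is steep.

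HDAC6 was lower in the CD133+ cells of KATO-III and close to level in SNU-216. In KATO-III the CD133+ arrays read 501 and 501 and the CD133- arrays 819 and 757. In SNU-216 they read 514 and 534 against 543 and 514, and in SNU-601 483 and 519 against 602 and 532. The fractions were apart in KATO-III and in SNU-601, where the gap between the nearest arrays was small, and overlapped in SNU-216.

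In KATO-III HDAC6 fell by 0.65 on the log2 scale, 1.57-fold lower in CD133+ cells (interval -0.83 to -0.48, limma adjusted p = 0.000199). The log2 values were -0.01 in SNU-216 (interval -0.19 to 0.16, adjusted p = 1) and -0.18 in SNU-601 (interval -0.35 to -0.0002, adjusted p = 0.174). Over the lines the value was -0.28 (interval -0.51 to -0.05), with an unadjusted p of 0.0216 and an adjusted p of 0.138 in limma, while 24.5% of all genes had an unadjusted p under 0.05. The exact permutation test within lines gave p = 0.0278 for HDAC6, also after adjustment over the 3 genes. As for PROM2, it took the arrays of a population as separate units. The KATO-III effect differed from that of SNU-216 by 0.64 (adjusted p = 0.00227) and from that of SNU-601 by 0.48 (adjusted p = 0.011), and SNU-601 and SNU-216 differed by -0.16 (adjusted p = 0.331). HDAC6 minus PROM1 changed by -1.94 on average, a value carried by PROM1. In no line was HDAC6 called higher in CD133+ cells.

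For HDAC6, 5 of the 15 pairs of populations passed, and each of them set KATO-III CD133- cells, at 788 ± 43.7 (SD, n = 2), against one of the other 5 populations. Those ranged from 567 ± 50 in SNU-601 CD133- through 529 ± 20.2 in SNU-216 CD133-, 524 ± 13.8 in SNU-216 CD133+ and 500.8 ± 25.8 in SNU-601 CD133+ to 500.7 ± 0.108 in KATO-III CD133+ cells. None of the 10 pairs among these 5 passed, with adjusted p from 0.0842 to 1. Fractions made up 36.3% of the variation of log2 HDAC6, the combination of line and fraction 33.8%, lines 24.9% and arrays of a population 4.99%. The whole range of HDAC6 means was 1.57-fold, against 5.57-fold for PROM2 and 6.95-fold for PROM1. In sorted populations, fewer cells with a transcript and less RNA per cell cannot be told apart for any of these genes.

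Of the 3 lines KATO-III had the highest share of genes that passed, 39.3% against 28.6% in SNU-216 and 16.4% in SNU-601. Markers moved in every line. CDH1, the epithelial cadherin, fell by 0.70 there (adjusted p = 6.83e-05), rose by 0.30 in SNU-216 (0.0109) and fell by 0.25 in SNU-601 (0.0362), and KRT18, a keratin, fell by 0.39 in SNU-216 (0.0176). The 7 blood, endothelial and fibroblast markers summed to 909.7 to 939.98 on the CD133+ and 1240.4 to 1282 on the CD133- arrays of KATO-III, with CD14 lower by 0.53 and COL1A1 higher by 0.84 on the log2 scale in CD133+ cells. CD14 alone made up most of these KATO-III sums, with means of 846 in CD133+ and 1222 in CD133- cells. COL1A1 was dim there, with means of 59.2 and 23.9, the latter under the floor. In SNU-216 the sum was 65.3 to 66.4 against 67.6 to 94.1, and in SNU-601 185 to 247 against 170.2 to 246. Their part in the KATO-III values was not tested, and PTPRC, CD3E, PECAM1 and COL3A1 were at or under the floor throughout.

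The study ranked genes by a signal-to-noise ratio, whose formula and scale are not given in the sources used here. Taken as the difference of the fraction means over the sum of their SDs, on the linear scale and with the 3 lines pooled, it was 1.40 for PROM1, above the cutoff of 1 and 34th from the top of 34595 genes. HDAC6 had -0.81 and PROM2 -0.31, neither of which reached -1. After each line was centred on its mean, the values were 3.24 for PROM1, -1.72 for PROM2 and -0.85 for HDAC6. Centring takes the spread between lines out of the SDs of every gene. How many of all genes then lay beyond 1 or -1 was not counted, so the cutoff is not applied to the centred values.

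The genes whose pattern was most like that of each member were ranked by Pearson's r on log2 values over the 12 arrays among 11673 other genes above the floor on all arrays. These r are descriptions, since the arrays share 3 lines and 6 populations. For PROM1 they were MGC40489, H2AFY2 (a macroH2A histone), ERI2, LOC100128191 and KPNA2 (an importin), with r of 0.93 to 0.91. For PROM2 they were CES2 (a carboxylesterase), MVP (the major vault protein), APOA1BP, PTK6 (an epithelial tyrosine kinase) and TJP3 (the tight junction protein ZO-3), with r of 0.99 to 0.98. For HDAC6 they were the histone gene HIST1H3H, ATXN1L, LOC100133772, MGAT1 and ASXL2, with r of 0.95 to 0.90.

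After centring within lines the order changed. The genes most like PROM1 were then FAM54A, CKLF, HS.128753, MRE11A (a double-strand break repair nuclease) and RFC5 (a clamp loader subunit), with r of 0.98 to 0.97, and RFC5 was higher by 0.53 to 0.56 on the log2 scale in each line. Those most like PROM2 were C19ORF33, DLGAP4, MUC20 (a membrane mucin), ISG20 and DDR1 (a collagen receptor kinase), with r of 0.99 to 0.98. MUC20 fell by 1.46 in KATO-III, 1.10 in SNU-216 and 0.38 in SNU-601, the same order of lines as PROM2, which the ranking by r favours. Those most like HDAC6 were STK36, ANGPTL4, LAMA3, FAM102A and DUSP3, with r of 0.98 to 0.97. STK36 stood at -1.34 in KATO-III, 0.07 in SNU-216 and -0.33 in SNU-601.

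HDAC6 is one of a family of deacetylases, and 16 of 18 genes of that family and of tubulin acetylation were tested beside it. None passed over the 3 lines in limma, where 4.73% of all genes did, and 4 had an unadjusted p under 0.05, as 24.5% of all genes had. Their median log2 change was -0.03, beside -0.01 over all genes tested. In KATO-III 5 rose and 2 fell, where 18.7% and 20.6% of all genes did, so that the share that passed was near that of all genes. The risers were HDAC2 (1.01), SIRT1 (1.15), SIRT6 (1.38), SIRT2 (0.42) and HDAC3 (0.22), which act on histones or, for SIRT2, also on tubulin, and the others were HDAC8 (-1.03) and HDAC11 (-0.69). SIRT2, the other tubulin deacetylase, went from 0.42 in KATO-III to -0.60 in SNU-216 (adjusted p = 0.048 and 0.0134). ATAT1, the acetyltransferase that puts the mark on tubulin, stood at -0.50 over the lines (adjusted p = 0.0854) and fell by 0.86 in SNU-216 (0.0198). In SNU-216 3 genes of the list rose and 3 fell, where 14.6% and 14.0% of all genes did. In SNU-601 only HDAC3 passed, where 16.4% of all genes did, and it fell by 0.28 (0.0163).

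**Figure D4:**
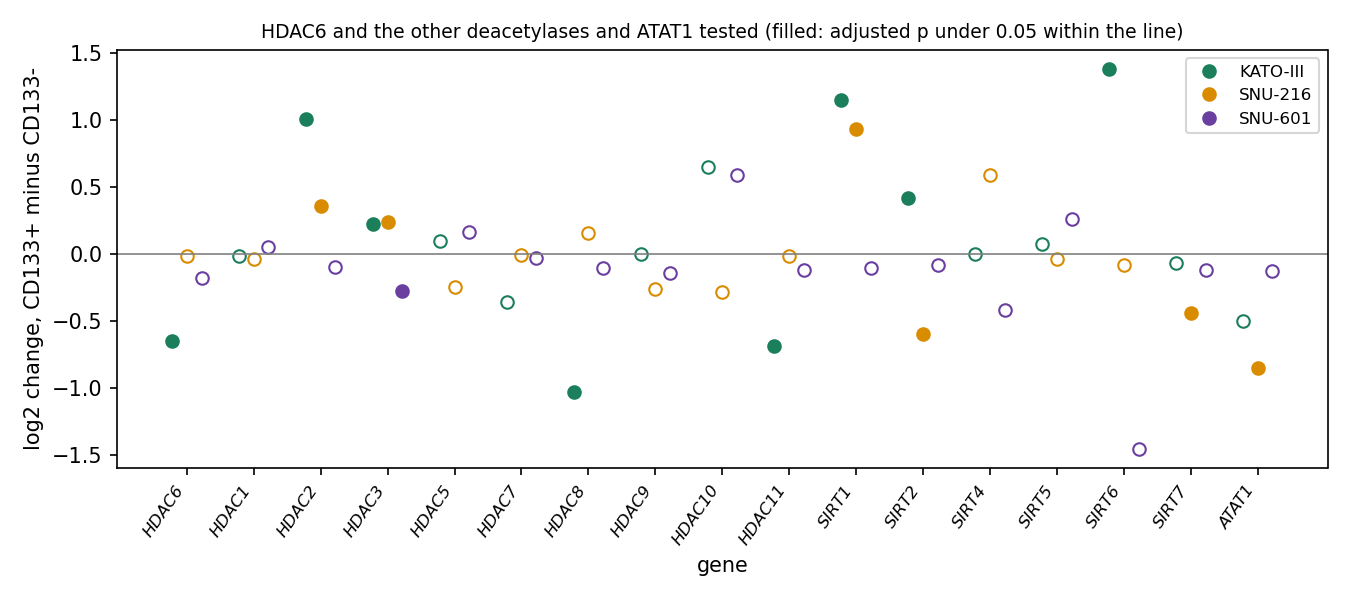
Log2 change from CD133- to CD133+ cells of HDAC6 and the 16 tested genes of the deacetylase and tubulin acetylation list, by line, with filled points for genes that passed the limma test within that line. HDAC6 lies at -0.65 in KATO-III, between HDAC11 at -0.69 and ATAT1 at -0.50, and the list spreads to both sides of 0.

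The 13 substrates and partners of HDAC6 were all tested, and none passed over the lines in limma, where 4.73% of all genes did, while 4 had an unadjusted p under 0.05 (24.5% of all genes) and the median was -0.04. In KATO-III 2 rose and 6 fell, against 18.7% and 20.6% of all genes. DYNLL1, a dynein light chain, rose by 0.18 and PPP1CC, a phosphatase subunit, by 0.39. CYLD, a deubiquitinase, fell by 1.08, BAG3, a chaperone partner in autophagy, by 0.42, VCP, the segregase that counters HDAC6 binding to ubiquitin, by 0.34, SQSTM1 by 0.26, PRDX2 by 0.26 and CTTN (cortactin) by 0.16. CTTN and VCP turned direction in SNU-601, where they rose by 0.17 and 0.15 and 8.59% of all genes passed as higher. The HSP90 genes HSP90AA1 and HSP90AB1 did not pass in any line, with values of -0.09 to -0.03.

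Of 9 partners of CD133 and proteins of its membrane domains, none passed over the lines in limma (4.73% of all genes did), while 2 had an unadjusted p under 0.05, a share near the 24.5% of all genes, and the median was 0.003. CAV1, the coat protein of caveolae, fell by 0.69 in KATO-III and rose by 1.48 in SNU-601. FYN and SRC, kinases that phosphorylate CD133, passed in 1 line each, FYN at 0.67 in SNU-216 and SRC at -0.30 in KATO-III. Of the 9, 1 passed as higher and 4 as lower in KATO-III, 1 and 1 in SNU-216, and 1 and 0 in SNU-601. The shares of all genes were 18.7% and 20.6%, 14.6% and 14.0%, and 8.59% and 7.78% in turn. FLOT1 and FLOT2 (flotillins) fell in KATO-III by 0.13 and 0.57.

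Of 8 reported regulators of PROM1, 6 were tested, and STAT3 alone passed over the lines, at -0.38 (adjusted p = 0.018), where 2.11% of all genes passed as lower, with a list median of 0.13. With population as a random block its adjusted p was 0.204, in a fit where only 1 of 20147 genes passed. STAT3 fell by 0.28 in KATO-III, 0.58 in SNU-216 and 0.29 in SNU-601, and so ran against PROM1 in each line. HIF1A, the hypoxia factor, stood at 0.55 over the lines (adjusted p = 0.0848), with rises of 0.89 in KATO-III and 0.78 in SNU-216 and a value of -0.02 in SNU-601. EPAS1 (HIF-2 alpha) fell by 0.77 in KATO-III and rose by 1.48 in SNU-216. Of the 6, 1 passed as higher and 2 as lower in KATO-III, 3 and 2 in SNU-216, and 0 and 1 in SNU-601. The shares of all genes were 18.7% and 20.6%, 14.6% and 14.0%, and 8.59% and 7.78% in turn.

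The AC133 epitope is known to depend on the form of the protein, so the N-glycan branching enzymes were counted too. Of 6, 5 were tested over the lines, with 1 higher and 1 lower and a median of -0.19. MGAT4A stood at 0.44 (adjusted p = 0.0498), with 0.80 in KATO-III, 0.47 in SNU-216 and 0.06 in SNU-601, of which the last did not pass. MGAT1, the enzyme that opens the way to branched glycans, fell by 0.24 over the lines (adjusted p = 0.0397) and by 0.41, 0.14 and 0.18 in KATO-III, SNU-216 and SNU-601. With population as a random block neither passed (adjusted p = 0.263 for MGAT4A and 0.261 for MGAT1), but only 1 of 20147 genes passed in that fit. Without that block 2.62% of all genes had passed as higher and 2.11% as lower. MGAT3, the bisecting enzyme, fell by 2.14 in KATO-III, and its value was -0.09 in SNU-601. Of the 5, 2 passed as higher and 3 as lower in KATO-III, 1 and 3 in SNU-216, and 1 and 1 in SNU-601. The shares of all genes were 18.7% and 20.6%, 14.6% and 14.0%, and 8.59% and 7.78% in turn.

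Of 11 genes of the apical microvillus, where prominins sit, 10 were tested, and PODXL (podocalyxin) fell by 0.24 over the lines (adjusted p = 0.0489), with -0.23 in KATO-III, -0.36 in SNU-216 and -0.13 in SNU-601, of which the last did not pass. With population as a random block its adjusted p was 0.301, in a fit where only 1 of 20147 genes passed. Over the lines no gene of the list passed as higher in limma, where 2.62% of all genes did, while 2.11% of all genes passed as lower. Of the 10 tested, 5 had an unadjusted p under 0.05, against 24.5% of all genes. Their median was -0.11, beside -0.01 over all genes tested. Within lines 3 passed as higher in KATO-III, 2 in SNU-216 and 1 in SNU-601, where 18.7%, 14.6% and 8.59% of all genes did. As lower, 3 passed in KATO-III, 2 in SNU-216 and 2 in SNU-601, where 20.6%, 14.0% and 7.78% of all genes did. MUC1 had almost the same values, -0.23 over the lines (adjusted p = 0.0562). EZR (ezrin) stood at -0.09 (adjusted p = 0.275). EPS8, which caps and bundles actin, stood at 0.91 (adjusted p = 0.0659) and rose by 1.72 in KATO-III.

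The 3 protein-coding genes on each side of each member in RefSeq were looked up as well. QDPR, a pteridine reductase and the farthest of those listed on one side of PROM1, rose by 0.27 over the lines (adjusted p = 0.0155) and by 0.24, 0.34 and 0.23 in KATO-III, SNU-216 and SNU-601. With population as a random block its adjusted p was 0.232, in a fit where only 1 of 20147 genes passed. The other PROM1 neighbours tested were FGFBP1 (-0.07), TAPT1 (0.30) and LDB2 (-0.48), none of which passed over the lines. Of all genes 4.73% passed over the lines, 39.3% in KATO-III, 28.6% in SNU-216 and 16.4% in SNU-601. Within lines FGFBP1 passed in each but with mixed signs (-0.16 in KATO-III, 0.18 in SNU-216 and -0.25 in SNU-601), TAPT1 rose by 1.04 in SNU-216 and LDB2 fell by 1.16 in KATO-III. The mean of LDB2 in KATO-III CD133+ cells, 22.5, was under the floor. Near PROM2, ZNF514 (-0.34), ZNF2 (0.26), KCNIP3 (-0.16) and FAHD2A (0.04) did not pass over the lines, and neither did SUV39H1 (0.23), GLOD5 (-0.37), PCSK1N (-0.19) and TIMM17B (-0.11) near HDAC6. Within lines SUV39H1 passed in each with mixed signs (0.21 in KATO-III, -0.17 in SNU-216 and 0.66 in SNU-601), ZNF2 rose by 0.63 in SNU-601, KCNIP3 fell by 0.49 and TIMM17B by 0.26 in SNU-216, and GLOD5 fell by 1.11 in KATO-III. CD38, FGFBP2, GATA1 and ERAS were not above the floor on 2 arrays.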

How the data were processed

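RNA from FACS-sorted cells was amplified, labelled and hybridised to HT-12 v3 BeadChips. Per the study's methods the authors quantile-normalized the profiles, and the submitters' processing notes name BeadStudio (version not given in the sources used here). The deposited values were linear intensities, 1 row a gene symbol. How probes were combined and background was subtracted is not given in the sources used here, and a gene row may merge transcripts. Of the values, 32.1% were at or below 0. The series text names SNU201 in place of SNU-216, and the sample labels were followed. Both an HDAC7 and an HDAC7A row exist, and HDAC7 was used.

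Of 34688 rows, 93 were empty. Values were floored at 32.7, since 1% of the table lay under -32.7, and taken to log2. Those that exceeded the floor on 2 or more arrays entered the test in limma 3.58.1 (R 4.3.3) with a mean-variance trend and Benjamini-Hochberg adjustment at 0.05. The fit over the lines had cell line as a block and 8 residual degrees of freedom. Values within lines, interactions and pairs of populations came from a model with a mean per population and 6. Floored values understate the change of dim genes. Exact permutation tests (Python 3.11.15 with numpy 2.4.6) exchanged labels within lines. The number of arrays limits the precision. Named genes were the members, the 5 genes most alike by each correlation, members of the lists that passed over the lines with 1 sign, and genomic neighbours, while other list genes named were chosen after their values were seen. The members and lists were chosen with earlier results of these data known. Scripts were tested on simulated data.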

Additional observations from a re-analysis of the deposited data

Results flagged for a closer look

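The CD133 effect on each of the 3 genes differed between lines in limma's test of the interaction of line and fraction, with adjusted p of 9.62e-05 for PROM1, 0.00153 for PROM2 and 0.00343 for HDAC6, a test that 44.4% of all genes passed. For PROM1 the log2 effect was larger than in KATO-III by 0.92 in SNU-216 and by 0.75 in SNU-601. For PROM2 the effect was less negative than in KATO-III by 0.43 in SNU-216 and by 0.72 in SNU-601. For HDAC6 it was less negative than in KATO-III by 0.64 in SNU-216 and by 0.48 in SNU-601. KATO-III was on one side of each of these differences, and the cause was not tested.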

How the results depend on the processing

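The log2 changes of PROM1 and PROM2, and that of HDAC6 in KATO-III, SNU-601 and over the lines, kept their sign under every alternative that was run, and HDAC6 in SNU-216, not called, ran from -0.05 to 0.03. With the arrays of a population averaged first, PROM1 (1.66) and PROM2 (-0.62) over the lines had limma adjusted p of 0.796, and PROM2 minus PROM1 (-2.28) and HDAC6 minus PROM1 (-1.94), which the sort on CD133 lowers by itself, had exact permutation p of 0.25, the smallest possible there, against 0.00926 over arrays. With no block for line, PROM1 (1.66) had 0.68 and PROM2 (-0.62) 0.99974. With population as a random block PROM2 (-0.62) had 0.149. Leaving out KATO-III or SNU-216, chosen after seeing the data, gave PROM2 -0.43 (0.0698) and -0.65 (0.0648). PROM2 in SNU-601 (-0.28) had 0.0822 with no filter on dim genes and 0.0647 without the variance trend, and ran from -0.34 to -0.23 with 1 array left out, where 5 of 12 fits lost the call. PROM2 in SNU-216 minus KATO-III then ran from 0.35 to 0.51 and SNU-601 minus SNU-216 from 0.22 to 0.37. That last difference (0.29) passed with a floor of 100 (0.049), with genes above the floor on all arrays (0.0466) and with the replicate block (0.0205). The signal-to-noise ratio moved to 3.24 for PROM1 and -1.72 for PROM2 with lines centred. Same-numbered arrays did not deviate together (r -0.0116 to 0.0276 over 15 pairs of populations), so the numbers did not pair them, and the replicate block moved the genes called over the lines from 527 higher and 426 lower to 275 and 196. Those counts were 234 and 191 with no filter, 1 and 0 with the random block, 0 and 0 in limma with averaging (992 genes at an unadjusted p under 0.05) or with no block for line (916), 145 and 81 without KATO-III CD133+ replicate 1, 115 and 81 without KATO-III, and 1376 and 1474 without SNU-601. Without SNU-216 731 were lower. In SNU-601 1568 were lower, and 944, 1017 and 1041 without CD133+ replicate 1, CD133+ replicate 2 and CD133- replicate 2. The signal of all 3 genes lay far above the floor.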

Other observations

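The genes whose log2 values ran most against the members were looked at after the values were seen, outside the rule for named genes, and the r are descriptions over 12 arrays of 6 populations. ANO9, a member of the anoctamin family, ran most against PROM1 both over the arrays (r = -0.97) and within lines (-0.98), and was lower in CD133+ cells by 0.42 to 0.65 on the log2 scale. HMMR, a spindle and hyaluronan-binding protein, ran against PROM2 within lines (r = -0.98) and was higher by 0.75 in KATO-III, 0.41 in SNU-216 and 0.27 in SNU-601. CCT4, a subunit of the cytosolic chaperonin, ran against HDAC6 within lines (r = -0.99), with 0.67 in KATO-III, -0.02 in SNU-216 and 0.15 in SNU-601.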
